A study of Caenorhabditis elegans with 6 samples.

Results

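The genes described here are targets of ERGO-1 class small interfering RNAs (siRNAs) in the nematode Caenorhabditis elegans. They were taken by name from a list of 10 sequence names, drawn up with earlier results of these data known: E01G4.5, E01G4.7, K02E2.6, C40A11.10, F55C9.3, F55C9.5, C36A4.11, W05H12.2, Y37E11B.2 and F52D2.6. A listed gene counted as present when the transcript table held a row with its sequence name, with or without an isoform suffix, and 9 of the 10 were present among 22013 genes. Of these 9, 8 are protein-coding in the table and E01G4.7 is a pseudogene, and together they have 13 of the 35862 transcripts. C40A11.10 has no row in the transcript table, is annotated as a microRNA gene in the Ensembl annotation used for comparison, and was not analysed here.

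The small RNAs are those of whole adult males, either with no PRG-1 (prg-1 null, 3 libraries) or wild type (3 libraries), all grown at 25 °C and collected 24 h after the middle of the fourth larval stage, with 20 to 30 males collected per genotype. PRG-1 is the Argonaute protein that carries piRNAs in this worm. The labels name the mutant only as a null, without the allele. They do not say whether the 3 libraries of a genotype came from separate cultures, so p-values measure the spread between these libraries, which may be technical. In fits over many genes at once, that spread is pooled in part or wholly over genes. The series compares siRNA levels in males with and without PRG-1. An acid pyrophosphatase step let RNAs with a 5′ triphosphate be cloned.

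ERGO-1 is an Argonaute protein of the endogenous RNA interference pathway. The RNA-dependent RNA polymerase RRF-3 and Dicer make 26G-RNAs, siRNAs of 26 nt that begin with G, and ERGO-1 binds those that lie antisense to a set of poorly conserved and duplicated genes. These primary siRNAs lead to the synthesis of far more numerous secondary siRNAs, the 22G-RNAs, which begin with G, carry a 5′ triphosphate, and are loaded on worm-specific Argonautes such as the nuclear NRDE-3. ERGO-1 class 26G-RNAs are known from oocytes and embryos, whereas another 26G class, bound by the Argonautes ALG-3 and ALG-4, is known from sperm-producing gonads. In the text below a 22G read is an antisense read of 21 to 23 nt that begins with G, and a 26G read is an antisense read of 26 nt that begins with G.

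The transcript table gives no description for any of the 9 genes. In the coordinates of the WBcel235 assembly in that table, E01G4.5 lies on chromosome II at 13472401 to 13473995 on the plus strand, and E01G4.7 follows it on the same strand at 13477471 to 13478929, leaving 3475 bases between them. F55C9.3 lies on chromosome V at 19287009 to 19288173 and F55C9.5 at 19290616 to 19291028, with 2442 bases between them and both on the minus strand. In the Ensembl annotation used for comparison F55C9.5 spans 19290574 to 19293125, so its counts here cover only a part of that span. K02E2.6 lies on the same chromosome at 20380561 to 20382036, plus strand. C36A4.11 lies on chromosome III at 3840595 to 3841154, Y37E11B.2 on chromosome IV at 3578415 to 3579531 and F52D2.6 on chromosome X at 1976115 to 1976701, all on the plus strand. W05H12.2 lies on chromosome I at 13411594 to 13412879 on the minus strand, and is protein-coding in the table. In the Ensembl annotation used for comparison it is a pseudogene at 13412425 to 13413172. The models of W05H12.2 thus overlap only in part, and the reads given here are those on the table's model.

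Some of these models share sequence with neighbours. The table's model of W05H12.2 overlaps W05H12.4, a protein-coding gene on the opposite strand, by 1220 bases. W05H12.4 had 0 reads on either strand in all 6 libraries, and reads from the 2 genes cannot be told apart on the shared stretch. Y37E11B.2 overlaps Y37E11B.16, an antisense RNA gene on the opposite strand, by 643 bases. In the table, 94.6% of the antisense reads of the 6330 genes with several isoforms stood on the first-listed isoform, and of the targets with several isoforms K02E2.6 and C36A4.11 had all of their antisense reads there, and Y37E11B.2 had 11401, with 126 on its other isoforms. How reads that align in several places were counted is not given in the sources used here, so the level of any target, C36A4.11 included, may hold or lack reads of similar genes.

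Sequencing depth differed between libraries. Genome-aligned reads numbered 1133888 to 2205341 in prg-1 null libraries and 973971 to 1799846 in wild-type libraries. 22G reads made up 17.8% to 20.0% of the genome-aligned reads in prg-1 null libraries and 8.79%, 10.96% and 20.4% in wild-type libraries, so wild-type library 2 was like the mutant libraries in this respect and wild-type libraries 1 and 3 were not. Reads on rbd-1 and daf-15, a pair of genes that dominate these libraries, took 16.4% to 25.1% of genome-aligned reads in prg-1 null libraries and 12.6% to 35.6% in wild-type libraries. Levels of 22G reads are therefore given as CPM, as RPM or as both. CPM is reads per 1000000 22G reads with TMM factors (22G-total scaling), and RPM is reads per 1000000 genome-aligned reads (the genome-aligned scale). As a check of the labels, prg-1 itself had 7, 15 and 9 22G reads in prg-1 null libraries and 143, 441 and 88 in wild-type libraries (log2 fold change -5.10 ± 0.46 (SE), adjusted p = 4.6e-09 on 22G-total scaling, edgeR). These are siRNA reads on the gene and not its mRNA.

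The 9 targets carried abundant 22G reads in both genotypes. They took 3.61%, 3.63% and 4.32% of all 22G reads in prg-1 null libraries and 2.27%, 2.99% and 3.96% in wild-type libraries. These shares overlapped between the genotypes, and wild-type library 1 had the lowest of the 6. Their summed 22G level was 6427, 7280.4 and 8604 RPM in prg-1 null libraries and 2493, 6101 and 3479.6 in wild-type libraries. On this scale every mutant library was above every wild-type library, with wild-type library 2 the nearest.

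Most of this signal lay on C36A4.11. It alone held 50.6% to 53.9% of the targets' 22G reads in prg-1 null libraries and 50.3% to 56.0% in wild-type libraries. Its mean 22G level in RPM ranked 2nd among the 22013 genes in both genotypes. Corrected for transcript length, it had 7682 ± 1412 RPM of 22G reads per kb in prg-1 null males and 4133 ± 1748 in wild-type males (SD, n = 3 each), and again ranked 2nd.

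Per kb, the order below C36A4.11 was K02E2.6, Y37E11B.2, E01G4.7, F55C9.3, W05H12.2, F52D2.6, E01G4.5 and F55C9.5 in both genotypes. K02E2.6 averaged 1508 ± 259.6 in prg-1 null males and 775 ± 326 in wild-type males on the per-kb scale (SD, n = 3 each). Y37E11B.2 averaged 1149.9 ± 36.2 in prg-1 null males and 559 ± 309 in wild-type males. In prg-1 null males the ranges of neighbouring genes did not overlap from C36A4.11 down to F55C9.3, whereas in wild-type males K02E2.6 overlapped Y37E11B.2, and Y37E11B.2 overlapped E01G4.7.

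From F55C9.3 down to E01G4.5 each gene's library values overlapped those of the next in both genotypes. F55C9.3 averaged 240.2 ± 87.4 per kb in prg-1 null males and 173 ± 37.0 in wild-type males. E01G4.5 averaged 139.9 ± 8.34 per kb in prg-1 null males and 63.8 ± 45.2 in wild-type males. F55C9.5, the last, was far below the rest at 3.61 ± 3.77 and 2.29 ± 2.30 per kb in prg-1 null and wild-type males. The per-kb ranks of the 8 genes above it ran from 2 to 244 among 22013 genes in prg-1 null males and from 2 to 331 in wild-type males, against 2796 and 3904 for F55C9.5. Reads of F55C9.5 were counted on a transcript of 362 bases, which covers only a part of its span in the Ensembl annotation.

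**Figure D1:**
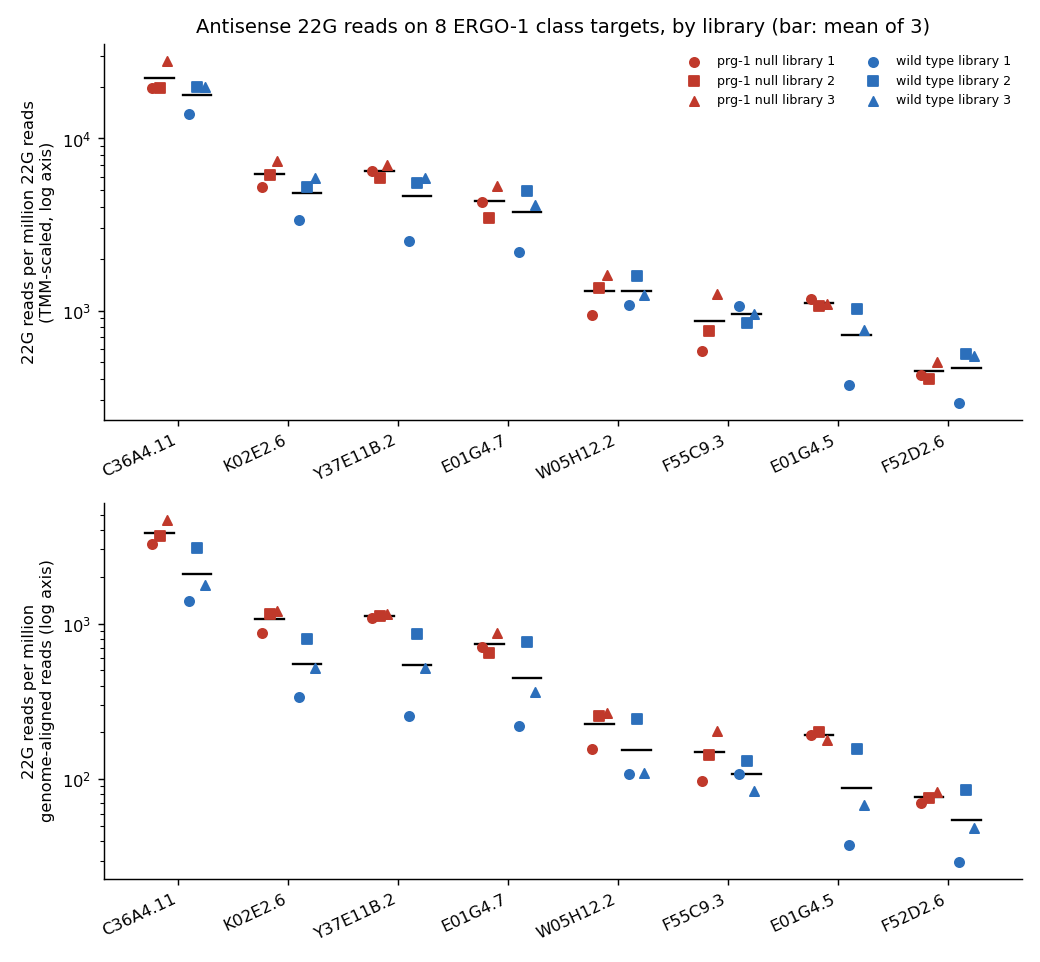
22G levels of 8 targets in each library on log axes, as CPM over 22G reads (top, TMM-scaled) and as RPM over genome-aligned reads (bottom), with prg-1 null libraries in red, wild-type libraries in blue, marker shape giving the library number and bars the mean of 3 libraries. The genotypes overlap for 6 of the 8 genes in the top panel and for 4 of the 8 in the bottom panel, and wild-type library 1 is the lowest wild-type value for 7 of the 8 genes in each panel. Over all 2952 genes tested, all prg-1 null libraries were above all wild-type libraries for 20.7% on 22G-total scaling and 29.5% on the genome-aligned scale. They were all below for 35.2% and 30.5%.

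The genotypes were compared with edgeR's quasi-likelihood test over all 2952 genes with enough 22G reads, and a gene was called at a Benjamini-Hochberg adjusted p under 0.05. Of the 9 targets present, 8 passed the filter on low counts, and F55C9.5 did not, with 8 22G reads over the prg-1 null libraries and 4 over the wild-type libraries. On 22G-total scaling 0 of the 8 were called, where 46.2% of all genes tested were called in either direction (12.9% higher and 33.2% lower in prg-1 null males). None of the 8 had an unadjusted p under 0.05, and DESeq2 and limma-voom also called 0. The log2 fold changes (prg-1 null over wild type) ran from -0.14 to 0.61 with a median of 0.26, against -0.13 over all genes tested.

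Scaled to genome-aligned reads, 3 of the 8 rose in prg-1 null males and none was called lower, where 17.5% of all genes tested were called higher, 29.9% lower and 47.4% in either direction. All 8 log2 fold changes were positive, with a median of 0.81, against 0.43 over all genes tested. Of the 368 tested genes with at least as many 22G reads as the target with fewest, 50% were called higher and 24.2% lower. The median log2 fold change of those 368 genes, described further below, was 1.10. The change of scale moved the median of all genes tested by 0.56, and relative to that median the targets' median was 0.39 on 22G-total scaling and 0.37 on the genome-aligned scale. The 3 calls were C36A4.11, K02E2.6 and Y37E11B.2, and they depended on single libraries. The number of targets called higher was 0 without prg-1 null library 1, 2 or 3, 0 without wild-type library 1, 6 without wild-type library 2, where E01G4.5, E01G4.7 and W05H12.2 joined them, and 3 without wild-type library 3. DESeq2 and limma-voom each called 0 of the 8 on this scale. The edgeR fit on this scale pooled the spread over genes, so a gene's own library spread hardly entered its p-value. K02E2.6 and Y37E11B.2 had the same SE of 0.413. Their coefficients of variation were 17.2% and 3.15% among prg-1 null libraries and 42.1% and 55.2% among wild-type libraries.

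**Figure D2:**
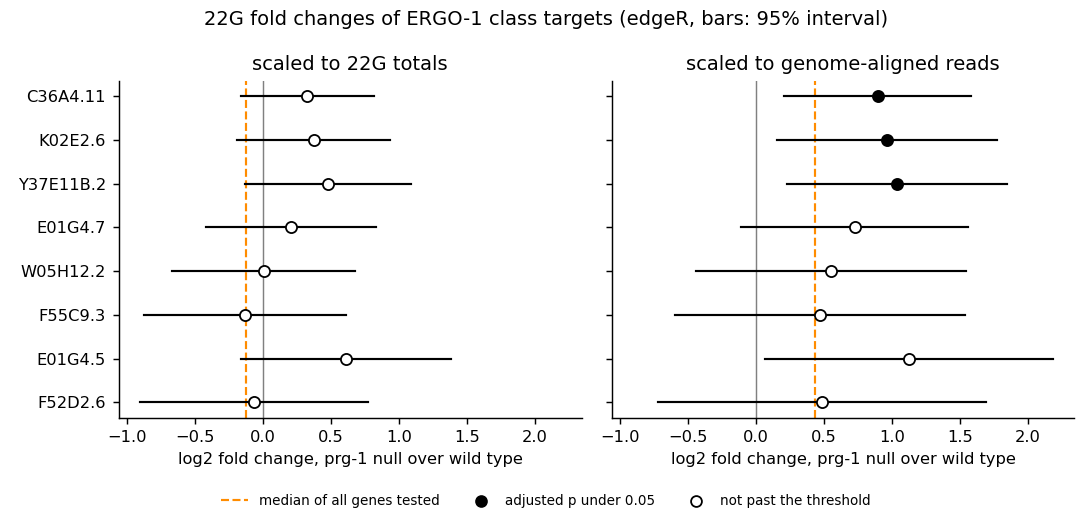
log2 fold changes of 22G reads (prg-1 null over wild type) for 8 targets with 95% intervals from edgeR, scaled to 22G totals (left) and to genome-aligned reads (right), with filled points for an adjusted p under 0.05 and a dashed line at the median of all 2952 genes tested. On the left all intervals include 0, and on the right C36A4.11, K02E2.6 and Y37E11B.2 are past the threshold and every point lies above 0.

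C36A4.11, the richest target, had 3252, 3681 and 4636 RPM of 22G reads in prg-1 null libraries and 1395, 3066 and 1764 in wild-type libraries. All mutant libraries were above all wild-type libraries, as they were for 29.5% of all genes tested. The mutant minimum stood close to wild-type library 2. The log2 fold change was 0.89 ± 0.35 (SE), with a 95% interval from 0.21 to 1.58 and an adjusted p of 0.0256 (edgeR). Scaled to 22G totals the levels were 19539.5, 19530.5 and 28171 CPM in prg-1 null libraries and 13789, 19922 and 19992 in wild-type libraries. These overlapped, and the log2 fold change was 0.32 ± 0.24 (adjusted p = 0.295, edgeR), a 1.25-fold difference with a 95% interval from 0.891 to 1.76.

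K02E2.6 had 866, 1159 and 1209.8 RPM of 22G reads in prg-1 null libraries and 338, 801 and 523 in wild-type libraries. The genotypes did not overlap on this scale, with prg-1 null library 1 and wild-type library 2 next to each other. Its log2 fold change was 0.96 ± 0.41 (SE; adjusted p = 0.0435, edgeR). On 22G-total scaling it had 5204, 6150 and 7351 CPM in prg-1 null libraries and 3337, 5206 and 5923 in wild-type libraries, which overlapped. There the difference was 1.29-fold with a 95% interval from 0.875 to 1.91 (adjusted p = 0.297, edgeR).

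Y37E11B.2 had 1083, 1114 and 1153 RPM of 22G reads in prg-1 null males and 255, 853 and 521 in wild-type males. Its coefficient of variation was 3.15% in prg-1 null males and 55.2% in wild-type males, and the genotypes did not overlap. Among the mutant libraries it was the most even of the 8 on this scale, whereas on 22G-total scaling E01G4.5 was more even (4.49%, against 8.50% for Y37E11B.2). The log2 fold change was 1.04 ± 0.41 (SE; adjusted p = 0.0276, edgeR). On 22G-total scaling it had 6508, 5908 and 7007 CPM in prg-1 null libraries and 2523, 5545 and 5899.9 in wild-type libraries. The genotypes were again separate, by a small gap between prg-1 null library 2 and wild-type library 3, and the 1.39-fold difference had a 95% interval from 0.912 to 2.12 (adjusted p = 0.207, edgeR).

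E01G4.5, a known target of nuclear RNA interference through NRDE-3, had 1160.6, 1067 and 1086 CPM of 22G reads in prg-1 null libraries and 371, 1014 and 768 in wild-type libraries. Its level on the genome-aligned scale was 193, 201 and 179 RPM in prg-1 null libraries and 37.5, 156 and 67.8 RPM in wild-type libraries. The genotypes overlapped on neither scale, although on 22G-total scaling prg-1 null library 2 and wild-type library 2 were close. It had the highest log2 fold change of the 8 on both scales, 0.61 ± 0.37 on 22G-total scaling (SE; adjusted p = 0.201) and 1.12 ± 0.54 on the genome-aligned scale (adjusted p = 0.0746, edgeR), and passed the threshold on neither. On the genome-aligned scale it was called without wild-type library 2, where the log2 fold change was 1.86, and with reads of rbd-1 and daf-15 left out of the total (1.12), and its adjusted p ran from 0.00045 to 0.345 over all alternatives (edgeR, DESeq2 and limma-voom). Its neighbour E01G4.7, the pseudogene, had 4266, 3439.8 and 5293 CPM in prg-1 null libraries and 2184, 4964 and 4119 in wild-type libraries. These overlapped, and its log2 fold change was 0.20 ± 0.30 on 22G-total scaling (adjusted p = 0.634) and 0.72 ± 0.43 on the genome-aligned scale (adjusted p = 0.154, edgeR). On the genome-aligned scale E01G4.7 was also called without wild-type library 2, with a log2 fold change of 1.35 (adjusted p of 0.00034 to 0.525 over all alternatives).

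The other 3 genes tested differed least between the genotypes. F55C9.3 had 583, 764 and 1245 CPM of 22G reads in prg-1 null libraries and 1064, 845 and 954 in wild-type libraries, so the mutant values spanned the wild-type ones. W05H12.2 had 938, 1357 and 1609 in prg-1 null libraries and 1072, 1581 and 1234 in wild-type libraries. F52D2.6 had 424, 401 and 504 in prg-1 null libraries and 290.1, 556 and 547 in wild-type libraries. All 3 overlapped on both scales.

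Their fold changes on 22G-total scaling were 0.910 for F55C9.3 (95% interval 0.544 to 1.52), 1.00 for W05H12.2 (0.629 to 1.60) and 0.954 for F52D2.6 (0.533 to 1.71), so a 2-fold difference lay outside the interval of each. The 95% intervals of C36A4.11, K02E2.6 and E01G4.7 also excluded a 2-fold difference on this scale, whereas those of Y37E11B.2 and E01G4.5 reached 2.12 and 2.61. On the genome-aligned scale the log2 fold changes were 0.47 for F55C9.3 (adjusted p = 0.490), 0.55 for W05H12.2 (adjusted p = 0.377) and 0.48 for F52D2.6 (adjusted p = 0.532, edgeR). The upper bounds of the fold changes of the 8 genes on that scale ran from 2.90 to 4.55, so a 2-fold rise could not be set aside there for any of them.

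The fold changes of these 8 genes were set beside those of genes with as many 22G reads, as a description with no test. F52D2.6, the target with the fewest 22G reads of those tested, had 626 over the 6 libraries, and 368 of the genes tested, the targets among them, had at least that many on their richest isoform. These 368 genes were chosen by reads summed over the 6 libraries, so a gene rich in only 1 genotype could enter. Of them, 71.7% were called on 22G-total scaling, 45.1% higher and 26.6% lower, with a median log2 fold change of 0.57. Their median absolute log2 fold change was 2.61, against 1.39 over all 2952 genes tested and 0.26 over the targets. All 8 targets stayed under a 2-fold estimate on this scale, as did 31.5% of the 368 genes and 40.8% of all genes tested. Scaled to genome-aligned reads, 6 of the 8 targets were under 2-fold, against 23.9% of the 368 genes and 31.8% of all genes tested.

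The targets largely shared an order of libraries. Among the mutant libraries, prg-1 null library 3 had the highest level for 7 of the 8 genes on both scales. Among the wild-type libraries, library 1 had the lowest level for 7 of the 8 on both scales, and library 2 had the highest for all 8 on the genome-aligned scale. The median coefficient of variation of the 8 genes on that scale was 16.3% among prg-1 null libraries and 51.6% among wild-type libraries, and on 22G-total scaling 19.3% and 30.1%. Over all genes, 22G reads took 10.96%, 20.4% and 8.79% of the genome-aligned reads of wild-type libraries 1, 2 and 3. In prg-1 null libraries 1, 2 and 3 they took 17.8%, 20.0% and 19.9%. Library 2 was thus the highest wild-type library over all genes too, and the wild-type libraries were the less even. How many of all genes tested shared the targets' order of libraries was not computed.

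Each tested target was also set against the mean of the 8 over the 6 libraries, as log2(RPM + 1). Pearson's r with that mean, of which each gene is itself a part, was 0.92 to 0.99 for 7 of the 8, and 0.68 for F55C9.3. Among 368 other tested genes at or above the level of the lowest target, the 5 with the highest r to the same mean were C44B11.6 (0.996), Y7A5A.21 (0.995), F39E9.6 (0.992), F39E9.7 (0.989) and H16D19.7 (0.986). These points share their libraries and depth, and the r values are descriptions over 6 libraries. The log2 fold changes of these 5 genes ran from 0.11 to 0.41 on 22G-total scaling and from 0.69 to 0.98 on the genome-aligned scale. On the genome-aligned scale F39E9.6 (adjusted p = 0.0313) and H16D19.7 (adjusted p = 0.0285, edgeR) were called higher. Since the genes were chosen for likeness over the same 6 libraries, a resemblance of these fold changes to those of the targets follows from the choice.

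The reads on the targets were almost wholly antisense. Over the prg-1 null libraries the 9 genes had 50063 antisense and 29 sense reads, and over the wild-type libraries 22662 antisense and 42 sense reads. Antisense reads were thus 99.9% of the total in prg-1 null males and 99.8% in wild-type males, whereas for all other genes they were 58.1% and 53.8%. All other genes include rbd-1 and daf-15, which took 12.6% to 35.6% of the genome-aligned reads of a library. The shares of all other genes, here and below, were not recomputed without that pair. K02E2.6 held 42 of the 71 sense reads, and F55C9.3, F55C9.5 and F52D2.6 had 0.

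Antisense reads on the targets peaked at 22 nt and began mostly with G. 22G reads were 75.4% to 77.8% of the targets' antisense reads in prg-1 null libraries and 75.2% to 77.6% in wild-type libraries, so the genotypes overlapped within a narrow range. For all other genes the share was 49.5% to 56.4% in prg-1 null libraries and 34.4% to 54.3% in wild-type libraries. Of the targets' antisense reads of 21 to 23 nt, 84.1% to 86.5% began with G in prg-1 null libraries and 83.1% to 86.2% in wild-type libraries, against 74.7% to 78.4% and 66.8% to 77.2% for all other genes.

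**Figure D3:**
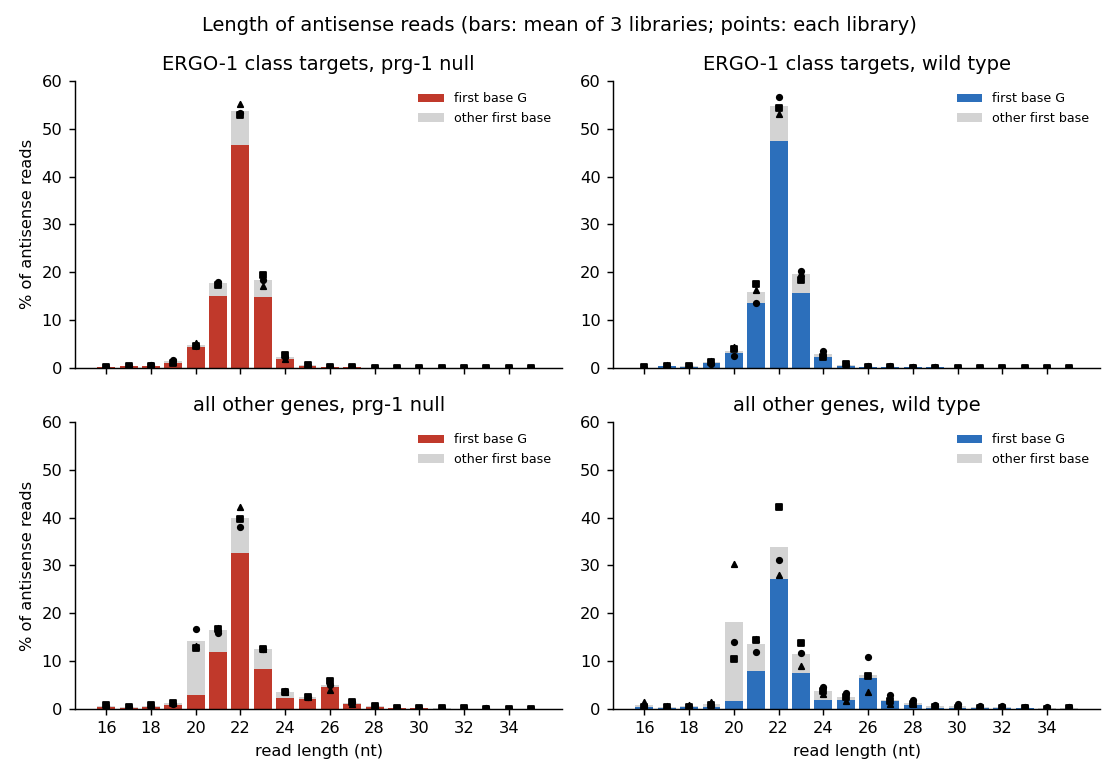
Share of antisense reads at each read length (nt) for the targets (top) and all other genes (bottom) in prg-1 null males (left) and wild-type males (right), with bars for the mean of 3 libraries, colour for reads that begin with G, grey for other first bases and points for each library's total. The targets show a single peak at 22 nt in both genotypes, and the smaller peak of G-starting reads at 26 nt is seen in all other genes and not in the targets.

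Single targets differed from this common pattern in length. E01G4.5 carried more 21-nt reads than reads of 22 or 23 nt. They were 45.9% to 57.1% of its 22G reads in prg-1 null libraries and 43.5% to 60.6% in wild-type libraries. Its neighbour E01G4.7 carried mostly 22-nt reads, 76.8% to 80.7% in prg-1 null libraries and 77.5% to 84.8% in wild-type libraries. The ranges of these neighbours did not overlap in either genotype, since E01G4.5 had 22.7% to 31.2% and 19.6% to 22.4% at 22 nt.

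F55C9.3 had almost no 21-nt reads, with 0% to 3.75% of its 22G reads at that length in prg-1 null libraries and 0% to 2.14% in wild-type libraries. Y37E11B.2 was rich in 23-nt reads, with 35.0% to 39.9% in prg-1 null libraries and 38.8% to 42.2% in wild-type libraries. K02E2.6 was spread over the 3 lengths, with 34.4% at 21 nt, 39.6% at 22 nt and 26.04% at 23 nt over the 6 libraries. Over all other genes the split was 20.97%, 62.6% and 16.4%, close to the 19.3%, 61.3% and 19.4% of the targets together.

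The first base of 21 to 23 nt antisense reads differed less. G began 94.8% of these reads on F55C9.3 and 94.5% on W05H12.2 over the 6 libraries, against 77.8% on K02E2.6 and 80.5% on Y37E11B.2. Reads that began with A made up 16.2% on K02E2.6 and 16.4% on Y37E11B.2, near the 16.03% of all other genes. F55C9.5 stood apart: of its 101 antisense reads 12 were 22G reads, and A began 74.1% of those of 21 to 23 nt.

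**Figure D4:**
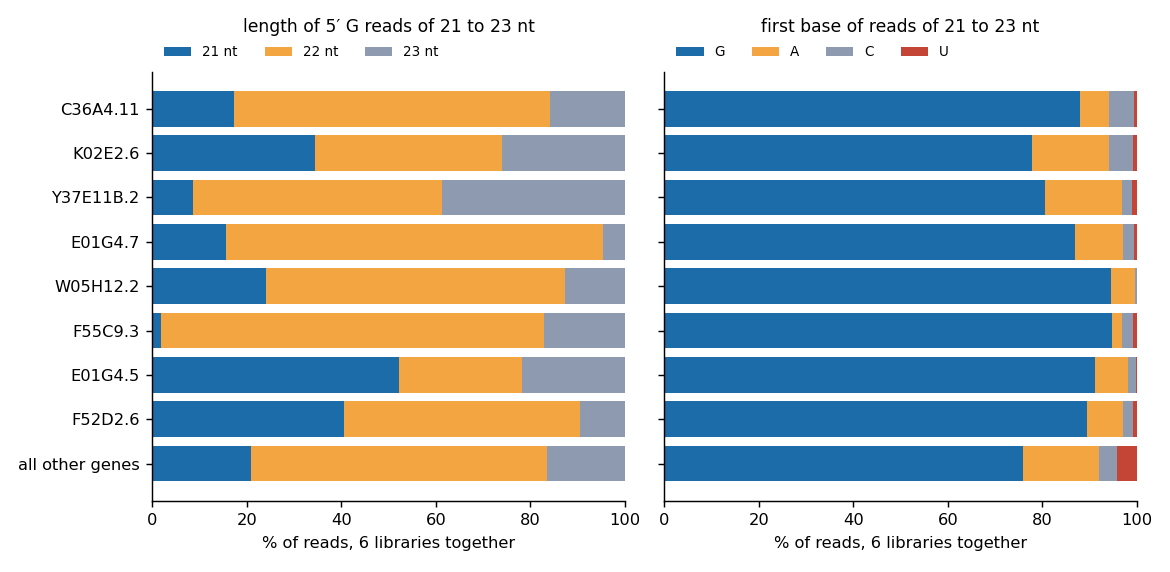
Share of 21-, 22- and 23-nt reads among 22G reads (left) and of each first base among antisense reads of 21 to 23 nt (right) for 8 targets and for all other genes, over the 6 libraries. E01G4.5 is richest in 21-nt reads (52.3%), F55C9.3 in 22-nt reads (81.0%) and Y37E11B.2 in 23-nt reads (38.8%), and K02E2.6 and Y37E11B.2 have the highest shares of reads that begin with A among these 8.

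The primary siRNAs that give the class its name were few on these genes in adult males. The 9 targets had 54 26G reads among 50063 antisense reads in prg-1 null libraries, a share of 0.108% (95% Clopper-Pearson interval 0.081% to 0.141%), and 33 among 22662 in wild-type libraries, a share of 0.146% (0.1003% to 0.204%). All other genes had 4.52% in prg-1 null libraries and 6.71% in wild-type libraries. The files record no molecular identifiers, so intervals and limits cover counting error only.

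The targets' 26G reads per 1000 of their 22G reads were 1.10, 1.98 and 1.16 in prg-1 null libraries and 3.60, 1.82 and 0.590 in wild-type libraries. These overlapped. Over all genes the same ratio was 89.9, 100.4 and 62.3 in prg-1 null libraries and 249, 114.7 and 83.4 in wild-type libraries. A low ratio was usual for genes with many 22G reads: 373 tested genes had at least 626 22G reads summed over isoforms. Their median ratio was 1.41, and 97 of them (26.01%) had no 26G read. The tested targets were spread among these 373 genes. The ratio was lower than that of F52D2.6 in 93.6% of them, E01G4.5 in 85.8%, Y37E11B.2 in 81.0% and W05H12.2 in 53.1%. It was lower than that of K02E2.6 in 45.0%, C36A4.11 in 33.2%, E01G4.7 in 28.2% and F55C9.3 in 0%. These places rest on 0 to 38 26G reads a target.

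Y37E11B.2 had the most 26G reads of the targets, 4, 14 and 4 in prg-1 null libraries and 4, 11 and 1 in wild-type libraries, and ranked 842nd among all genes by mean 26G level in RPM. C36A4.11 had 1, 7 and 4 in prg-1 null libraries and 6, 0 and 1 in wild-type libraries, although it carried 28990 22G reads in all. F52D2.6 had 2, 0 and 5 in prg-1 null libraries and 0 in each wild-type library, and its 11.2 26G reads per 1000 22G reads were the highest of the targets.

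K02E2.6 had 9 26G reads over the prg-1 null libraries and 1 over the wild-type libraries, E01G4.5 had 3 and 5, E01G4.7 had 1 and 1, and W05H12.2 had 0 and 3. F55C9.3 had 0 of 1389 antisense reads, which allows a share of up to 0.216% when the limit of a count of 0 is set at 3 reads, and up to 0.265% by the 95% Clopper-Pearson interval used above. F55C9.5 had 0 of 101, which allows up to 2.97% and 3.59% by these measures. The genotypes overlapped for all 9. In exact two-sided permutation tests of the 26G level in RPM (3 against 3 libraries, where the smallest p possible is 0.1), the 7 genes with any 26G read gave unadjusted p of 0.4 to 1.

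None of the targets had enough 26G reads for the fit across genes, in which 0.464% of 647 genes were called higher and 0.773% lower on 22G-total scaling (1.24% in either direction), and 0.464% higher and 0% lower on the genome-aligned scale. The number called lower was 165 on 22G-total scaling and 48 on the genome-aligned scale without wild-type library 3, and 0 or 1 on both scales without any other library. The 5 genes with the highest mean 26G level were Y38F1A.1, F59A6.2, ssq-1, a member of a sperm-specific gene family, K08C9.2 and K03H1.12. They had 1678 to 3906 26G reads and 142 to 287 22G reads each over the 6 libraries, the opposite balance to the targets.

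**Figure D5:**
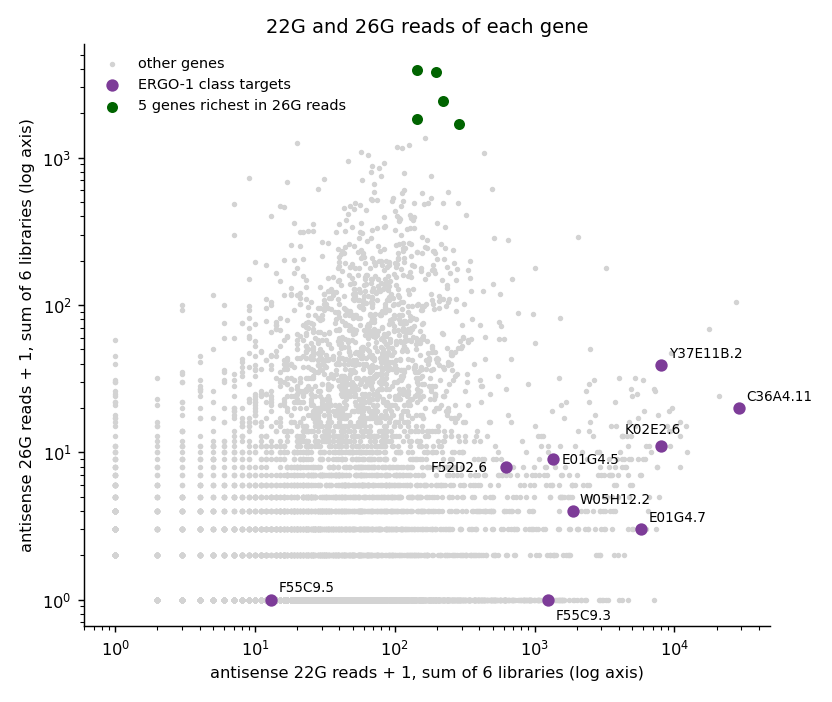
Antisense 22G reads + 1 (x) against antisense 26G reads + 1 (y) for each gene, summed over the 6 libraries, on log axes, with the 9 targets in purple, the 5 genes richest in 26G reads in green and all other genes in grey. Of the targets 8 lie at the right with 626 to 28990 22G reads and at most 38 26G reads, and F55C9.5 lies low on both axes.

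The genes that make and use these siRNAs were looked at through their own 22G reads, since no mRNA data were analysed here. A list of 41 genes of the ERGO-1 pathway and the secondary siRNA machinery was used, and 18 of them had enough 22G reads to be tested. On 22G-total scaling 5 of the 18 fell in prg-1 null males and none was called higher, with 33.2% and 12.9% of all genes tested as the background. The median log2 fold change of the 18 was -0.13, as over all genes tested. Scaled to genome-aligned reads, 3 fell and 1, wago-1, was called higher, with 29.9% and 17.5% as the background.

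The largest falls on 22G-total scaling were those of rde-11 and nrde-1. rde-11, whose product acts in exogenous RNA interference to amplify secondary siRNAs, had 1, 6 and 1 22G reads in prg-1 null libraries and 80, 177 and 35 in wild-type libraries, a log2 fold change of -5.86 ± 0.64 (SE; adjusted p = 7.1e-08, edgeR). nrde-1, a nuclear RNA interference factor that acts after NRDE-3, had 7, 3 and 7 in prg-1 null libraries and 56, 94 and 17 in wild-type libraries (-3.98 ± 0.60; adjusted p = 7.3e-06, edgeR). The genotypes did not overlap for either gene. Without prg-1 null library 2 the log2 fold change of rde-11 was -6.78 and that of nrde-1 was -3.33, and without prg-1 null library 3 that of rde-11 was -5.12, all still called.

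The other 3 falls on 22G-total scaling were those of rde-4, a double-stranded RNA binding partner of Dicer (log2 fold change -3.46, and -2.78 without prg-1 null library 1), of eri-3, a component of the Dicer complex that makes 26G-RNAs (-2.08, adjusted p = 0.0282) and of hrde-1, a germline nuclear Argonaute (-1.43, adjusted p = 0.00802, edgeR). On 22G-total scaling hrde-1 had 238, 382 and 262 CPM in prg-1 null libraries and 1056, 950 and 361 in wild-type libraries, so the genotypes overlapped. eri-3 had 4, 4 and 7 22G reads in prg-1 null libraries and 11, 24 and 4 in wild-type libraries. rde-4 had 1, 11 and 10 in prg-1 null libraries and 41, 97 and 10 in wild-type libraries. In CPM the genotypes did not overlap for eri-3 or rde-4. Neither eri-3 nor hrde-1 was called on the genome-aligned scale. The number that fell on 22G-total scaling was 3 without prg-1 null library 1, 3 without wild-type library 1 or 2, and 4 without prg-1 null library 2 or 3. The eri-3 call was lost when any library but wild-type library 3 was left out, and the hrde-1 call was lost without prg-1 null library 1, wild-type library 1 or wild-type library 2. wago-1, an Argonaute that binds 22G-RNAs, had 35, 32 and 38 22G reads in prg-1 null libraries and 5, 13 and 5 in wild-type libraries, with a log2 fold change of 1.99 on the genome-aligned scale (adjusted p = 0.0355) and 1.43 on 22G-total scaling (adjusted p = 0.0676, edgeR). The call was lost without any 1 of the 3 prg-1 null libraries and without wild-type library 1.

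ergo-1 itself had 25, 58 and 68 22G reads in prg-1 null libraries and 26, 88 and 13 in wild-type libraries. The log2 fold change was -0.45 ± 0.47 on 22G-total scaling (SE; adjusted p = 0.478) and 0.06 on the genome-aligned scale (adjusted p = 0.955, edgeR). rrf-3, the polymerase that starts 26G-RNA synthesis, had 5, 21 and 19 22G reads in prg-1 null libraries and 0, 10 and 0 in wild-type libraries. nrde-3 had 2, 0 and 0 in prg-1 null libraries and 0 in each wild-type library, and neither rrf-3 nor nrde-3 had enough reads to be tested.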

How the data were processed

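Small RNA reads from 3 prg-1 null and 3 wild-type male samples were analysed. Per the file headers, the authors' tables tally read starts by strand, length and first base on each Ensembl transcript and each genome segment. The deposited values are whole-number read counts and entered the fits unchanged. The deposited counts are recorded here as estimated counts only because of how the authors named their columns, and rounding changed no value. How reads that align in several places were counted is not given in the sources used here. Per the submitters' processing notes, FastQC 0.12.0 and cutadapt 3.7 were used and the assembly was WBcel235. The aligner is not given in the sources used here.

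22G reads were antisense reads of 21 to 23 nt that begin with G, and 26G reads antisense reads of 26 nt that begin with G. For the fits, only the isoform of a gene with the most reads on average was kept. Coding genes and pseudogenes were fitted together with edgeR 4.0.16 (R 4.3.3): filterByExpr, quasi-likelihood test on genotype, Benjamini-Hochberg adjustment over all genes tested, threshold 0.05. Libraries were scaled to 22G totals with TMM factors, or to genome-aligned reads with no further factor. 26G reads were fitted with the same library sizes. DESeq2 1.42.0, limma 3.58.1 and the other alternatives are given at the end.

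The members and the pathway list were chosen with earlier results of these data known. The text names all members, prg-1, the 2 largest called changes of the pathway list in each direction on 22G-total scaling, ergo-1, rrf-3 and nrde-3, the 5 genes of most like pattern and the 5 genes richest in 26G reads. rde-4, eri-3, hrde-1 and wago-1 lie outside this rule and were named after their values were seen, as were W05H12.4, rbd-1 and daf-15. Replicate numbers did not pair the libraries. Library depth limits what small counts can show.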

Additional observations from a re-analysis of the deposited data

How the results depend on the processing

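On 22G-total scaling 105 of 127 recomputed fold changes of the 8 tested targets kept their sign and stayed outside the call, and 21 changed sign, all of them of E01G4.7, F52D2.6, F55C9.3 or W05H12.2. One call appeared: with 22-nt reads alone 1 target, Y37E11B.2, was called higher (adjusted p = 0.0378, edgeR, within a range of 0.0378 to 0.632 over all its alternatives). On the genome-aligned scale all 135 recomputed fold changes stayed positive, and 25 lost and 4 gained a call. There 0 targets were called with DESeq2, with limma-voom or with no filter on low counts, and 1 with all antisense reads. Leaving out 1 library gave 0 to 6.

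The signs that changed on 22G-total scaling belonged to log2 fold changes near 0. Without a filter F52D2.6 had 0.12 and F55C9.3 0.10; with summed isoforms they had 0.18 and 0.12; with all antisense reads 0.29 and 0.044. F55C9.3 had 0.078 with 22-nt reads alone. W05H12.2 had -0.0080 without TMM factors, -0.064 with DESeq2, -0.015 with limma-voom and -0.012 with the replicate block. Leaving out 1 library gave -0.069 to 0.61 for E01G4.7, -0.31 to 0.26 for F52D2.6, -0.32 to 0.37 for F55C9.3, -0.12 to 0.49 for W05H12.2 and -0.65 to 0.0074 for ergo-1. On genome-aligned scaling ergo-1 had -0.022 with 22-nt reads alone, -0.011 with all antisense reads and -0.27 to 0.75 when 1 library was left out.

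Same-numbered libraries of the 2 genotypes did not deviate together (r = -0.02, 0.05 and 0.02). With the replicate number as a block, 0 targets were called on 22G-total scaling and 2 on the genome-aligned scale, and 347 higher and 951 lower genes in all on 22G-total scaling.

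Of the pathway list, 3 genes were called lower on 22G-total scaling with no filter, where eri-3 and hrde-1 lost their calls, and with all antisense reads, where hrde-1 lost its call, and 3 to 5 when 1 library was left out. There 1 gene was called higher with at least 10 reads in 3 libraries, with summed isoforms and with all antisense reads, and 0 to 1 when 1 library was left out. Genome-aligned scaling called 0 higher with limma-voom, with no filter and with 22-nt reads alone, and 0 to 2 when 1 library was left out. In the fit of 26G reads over all genes, the number called higher was 14 on 22G-total scaling and 18 on the genome-aligned scale with reads of 25 to 27 nt, 0 on both with limma-voom, and 0 to 6 and 2 to 8 when 1 library was left out; the number called lower was 2 to 10 and 0 to 3 over the alternatives that keep all libraries. The differences in 26G level in RPM (prg-1 null minus wild type) ran, when 1 library was left out, from -0.66 to 1.79 for C36A4.11, -0.94 to 0.45 for E01G4.5, -0.27 to 0.29 for E01G4.7 and -0.80 to 2.50 for Y37E11B.2. The cause of these changes was not tested. Depth limits the 26G values, at 0 to 38 reads a target.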
